A study of Homo sapiens with 8 samples.

Results

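Androgen receptor target genes were examined across 4 drug treatments of LNCaP cells, an established human prostate cancer line with a luminal character that responds to androgen. The set comprised 41 genes known to be regulated by androgen in prostate cells, kallikreins left aside, and its members were found by gene symbol among the 55737 genes of the deposited table. All 41 were present and all 41 passed the filter on low values, a mean of at least 10 normalised counts, which left 19393 genes for testing. Cells were harvested 4 h after addition of the drugs. One group received the combination of 0.5 µM AT7519 and 40 µM OSMI-2, one received 0.5 µM AT7519, one received 40 µM OSMI-2, and one was a control whose vehicle the labels do not name, with 2 libraries in each group. OSMI-2 inhibits O-GlcNAc transferase, the enzyme that attaches single sugar residues to nuclear and cytoplasmic proteins, and AT7519 inhibits cyclin-dependent kinases, among them CDK9, which releases paused RNA polymerase II. These doses follow the design text, while the treatment labels give the same figures in mM. No androgen or antiandrogen is named for any group, and the androgen content of the medium is not given in the sources used here. All libraries came from 1 cell line, and nothing in the labels says whether the 2 libraries of a group came from separate cultures, so p-values here speak to library-to-library spread alone, which may be technical.

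The androgen receptor is a nuclear receptor that is held by HSP90 and its cochaperones until an androgen binds, then enters the nucleus and binds response elements, mostly in enhancers far from the genes it controls, together with the pioneer factor FOXA1 and with HOXB13. In luminal prostate cells its targets include surface and secreted products such as TMPRSS2, prostate-specific membrane antigen (FOLH1) and prostatic acid phosphatase (ACPP), feedback regulators such as FKBP5, and enzymes of lipid metabolism.

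The upstream sequences of the genes on which the results turn are shown first. RefSeq promoter windows on GRCh38.p14 were matched for 33 of the 41 genes, with 62 windows among them, and TMPRSS2, NDRG1, ACPP, ZBTB10, TPD52, FOLH1, SORD and ADAMTS1 were not matched. The 150 bases before the first listed start are given for the 3 genes called higher with OSMI-2 and for 3 of the genes with the deepest fall with AT7519, each on the gene's own strand, 5′ to 3′, with the GC box GGGCGG or its reverse complement CCGCCC in capitals. AZGP1 lies at chr7:99976032-99976181 on the minus strand, SLC45A3 at chr1:205680510-205680659 on the minus strand, STEAP2 at chr7:90211590-90211739 on the plus strand, C1orf116 at chr1:207032757-207032906 on the minus strand, RHOU at chr1:228644497-228644646 on the plus strand and TSC22D3 at chrX:107775989-107776138 on the minus strand.
AZGP1: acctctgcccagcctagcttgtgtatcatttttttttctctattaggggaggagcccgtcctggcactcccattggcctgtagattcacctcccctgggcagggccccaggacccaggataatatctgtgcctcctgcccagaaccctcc
SLC45A3: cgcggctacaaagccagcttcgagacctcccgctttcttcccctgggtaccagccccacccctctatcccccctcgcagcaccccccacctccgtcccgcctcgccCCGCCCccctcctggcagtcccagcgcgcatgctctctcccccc
STEAP2: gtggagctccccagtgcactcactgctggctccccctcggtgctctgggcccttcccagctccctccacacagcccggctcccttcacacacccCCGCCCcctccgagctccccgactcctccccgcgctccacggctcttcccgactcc
C1orf116: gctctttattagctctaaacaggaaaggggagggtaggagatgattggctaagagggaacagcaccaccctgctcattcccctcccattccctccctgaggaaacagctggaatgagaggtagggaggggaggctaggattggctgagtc
RHOU: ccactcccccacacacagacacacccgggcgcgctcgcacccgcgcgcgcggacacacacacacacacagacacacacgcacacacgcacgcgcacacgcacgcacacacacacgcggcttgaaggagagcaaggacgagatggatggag
TSC22D3: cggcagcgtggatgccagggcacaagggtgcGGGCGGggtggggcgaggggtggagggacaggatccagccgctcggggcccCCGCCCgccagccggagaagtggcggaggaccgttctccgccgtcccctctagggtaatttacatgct
SLC45A3 and STEAP2 hold 1 GC box each in these stretches and TSC22D3 holds 2, whereas AZGP1, C1orf116 and RHOU hold none in them. In these stretches, genes that rose and genes that fell are thus found with and without the box. Outside them, the second RHOU window holds the box at -54, -42 and -10 from its start. SLC45A3 holds another at -216, and TSC22D3 holds more in other windows. Over full windows, which run from 250 bases before to 50 bases after a start, GGGCGG on either strand was found in 32 of 62 windows (51.6%) and 25 of 33 genes, close to the 45% of all 35116 windows. The TATA box TATAAA was found in 6 windows of 4 genes (9.68%, against 11.5% of all windows).

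The androgen response element, searched as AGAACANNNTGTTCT on both strands, was found in none of the 62 windows, and in 0.00285% of all windows. Its 6-base arm AGAACA, or the reverse complement TGTTCT, was found in 4 windows of 3 genes (6.45%, against 14.8% of all windows), and those 4 matches are shown with 10 bases on each side and the arm in capitals. They lie at chr6:35728568-35728593 on the minus strand (FKBP5), chr20:57711435-57711460 and chr20:57710791-57710816 on the minus strand (PMEPA1) and chr2:233979973-233979998 on the plus strand (TRPM8).
FKBP5: ccactaccccAGAACAaactcctacc
PMEPA1 first window: tgacttctccAGAACAagcctcctgg
PMEPA1 second window: ctgaagaatgTGTTCTtgtagcactc
TRPM8: catgaagagcAGAACAgccagtgtgc
Such a match describes letters only.

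Libraries held 60152710 to 154367238 reads, fewest in combination replicate 2, and the 41 genes together took 0.821 to 1.05% of the normalised counts of a library. Their median level was 7100 normalised counts, against 861 for all tested genes. Levels ran from 12.7 normalised counts on average for STEAP4 to 138995 for FOLH1, and 36 of the 41 were at or above 1000. The luminal markers KLK2, KLK3, HOXB13, KRT8, KRT18 and FOLH1 summed to 385099 to 451766 in the combination, 382846 to 398955 with AT7519, 318798 to 359821 with OSMI-2 and 321669 to 332059 in control. The sum hides opposite changes, since in the combination KLK2, KLK3, KRT8 and FOLH1 lay above control and HOXB13 and KRT18 below. HOXB13 had 22478 and 25998 normalised counts in the combination, 26210 and 24190 with AT7519, and 31085 and 33913 in control. KRT18 had 20822 and 24392 in the combination, 28219 and 27419 with AT7519, and 25645 and 27749 in control. Basal markers (KRT5, KRT14, TP63) summed to 41.8 to 106, neuroendocrine markers (CHGA, SYP) to 61.4 to 99.4 and leukocyte markers to at most 7.46. Fibroblast markers summed to 3101 to 3733 in the combination, 2512 to 3083 with AT7519, 1815 to 2557 with OSMI-2 and 1930 to 2035 in control, nearly all of it COL1A1, with COL1A2 at most 0.829 and DCN at most 7.29. Mitochondrial mRNAs made up 7.33 to 7.73% of counts in the combination, 6.57 to 7.04% with AT7519, 4.99 to 5.53% with OSMI-2 and 4.45 to 4.69% in control. In such bulk libraries, fewer cells of a type and less RNA per cell cannot be told apart.

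The deposited normalised counts assume that most genes keep their level. With AT7519 this matters, because setting library totals equal moved the median change of all tested genes to -0.34 on the log2 scale and setting the mitochondrial mRNAs equal moved it to -0.91, against -0.0042 as deposited. In the combination the shifts were -0.23 and -0.95, against 0.022 as deposited, and equal upper quartiles gave 0.16. With OSMI-2 the mitochondrial scale gave -0.14, against -0.018. All changes are therefore read on the deposited scale first, and each direction is set beside 4 other scales: equal totals, equal upper quartiles, equal mitochondrial mRNAs and quantile normalisation. A gene is said to rise or fall where limma gave a Benjamini-Hochberg adjusted p below 0.05 over all tested genes, and fold changes come from log2 values with a pseudocount of 1. Both libraries of one group lay above both of the other for every gene called in a comparison of groups, a separation seen in 77.1% of all tested genes for the combination against control, 55.6% for the combination against AT7519, 76% for AT7519 and 53.6% for OSMI-2 against control. Among the 41 genes it was seen in 36, 25, 32 and 19.

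**Figure D1:**
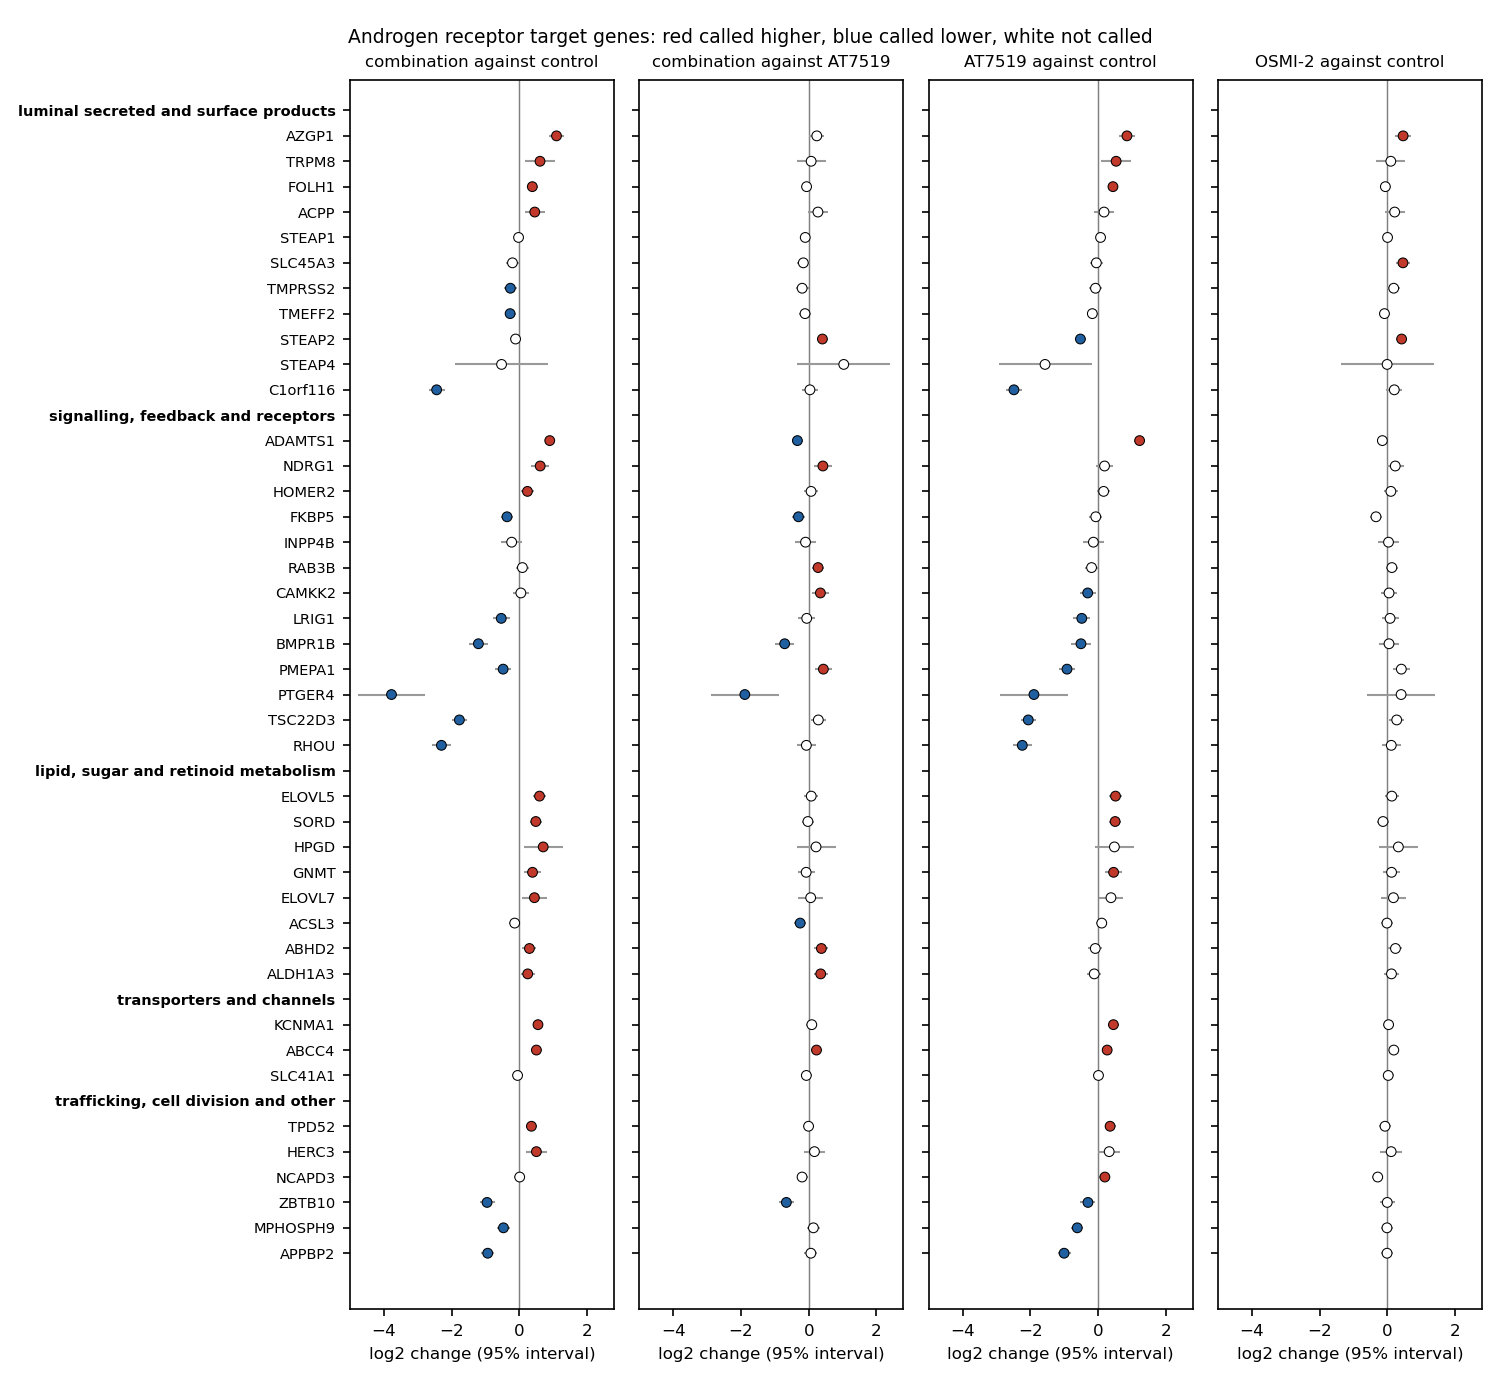
Fitted log2 change of each of the 41 genes, grouped by role, in 4 panels, namely combination against control, combination against AT7519, AT7519 against control and OSMI-2 against control; red and blue points are calls higher and lower (limma, adjusted p below 0.05), white points are not called, and bars are 95% intervals. The deepest falls, of C1orf116, RHOU, TSC22D3 and PTGER4, appear in both groups that received AT7519 and not with OSMI-2.

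OSMI-2 was set against control to ask what inhibition of O-GlcNAc transferase does on its own. Of the 41 genes, 3 rose and 0 fell, so 7.32% rose against 0.645% of all tested genes and 0% fell against 2.38%. In limma, 2 were below control at an unadjusted p below 0.05, and edgeR called 1 lower and DESeq2 2. All 3 genes that rose encode luminal surface or secreted products. The median log2 change of the 41 was 0.11, against -0.018 for all tested genes, and 29 of the 41 were above 0. Among the 9340 tested genes at or above 1000 normalised counts, 0.91% were called higher and 4.71% lower.

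STEAP2, a metalloreductase of the prostate epithelial membrane, had 69238 and 74909 normalised counts in the combination, 55335 and 53453 with AT7519, 99599 and 109963 with OSMI-2, and 76590.2 and 79324 in control. OSMI-2 libraries were the highest of the 8 and AT7519 libraries the lowest. The log2 change with OSMI-2 was 0.43 (SE 0.073, adjusted p = 0.0117), 1.34-fold. SLC45A3, the membrane transporter known as prostein, had 13230.4 and 12186 normalised counts in the combination, 14949 and 13437 with AT7519, 19922 and 20495 with OSMI-2, and 13484 and 15901 in control. OSMI-2 libraries stood above all others and the remaining groups overlapped in part. The log2 change with OSMI-2 was 0.46 (SE 0.091, adjusted p = 0.018), 1.38-fold. AZGP1, the secreted zinc-binding glycoprotein linked to lipid mobilisation, had 2167 and 2089.9 normalised counts in the combination, 1777 and 1830.3 with AT7519, 1329.6 and 1430.2 with OSMI-2, and 962 and 1031 in control. The 4 groups did not overlap, and the combination was highest, followed by AT7519, OSMI-2 and control. The log2 change with OSMI-2 was 0.47 (SE 0.11, adjusted p = 0.0319), 1.38-fold.

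The 3 rises rest on few libraries. None of them was called without control replicate 1, without control replicate 2 or without OSMI-2 replicate 2, and 1, STEAP2, was called without OSMI-2 replicate 1, although over the 8 omissions the log2 change ran from 0.35 to 0.58 for SLC45A3, from 0.35 to 0.50 for STEAP2 and from 0.42 to 0.52 for AZGP1. They kept their direction on the 4 other scales and were called on all of these except the mitochondrial one, on which 0 of the 41 genes rose and 2 fell. Of all 19393 tested genes, 98 rose and 1173 fell on that scale.

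Members below control with OSMI-2 included FKBP5, the cochaperone that feeds back on steroid receptors, with 10087 and 10151 normalised counts in the combination, 12186 and 12776 with AT7519, 10843 and 9903 with OSMI-2, and 12052 and 14123 in control. Its log2 change with OSMI-2 was -0.33 (adjusted p = 0.057) and the OSMI-2 and control libraries did not overlap, yet the gene was not called. NCAPD3, a condensin II subunit, stood at a log2 change of -0.28 (adjusted p = 0.061). PMEPA1, a membrane protein that restrains TGF-beta signalling, stood at a log2 change of 0.42 (adjusted p = 0.062), close to the threshold on the higher side.

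AT7519 was set against control to ask which targets depend on cyclin-dependent kinase activity over 4 h. Of the 41 genes, 11 rose and 12 fell. These shares, 26.8% higher against 26% of all tested genes and 29.3% lower against 27.2%, are near the background. On the deposited scale the count alone thus does not set these genes apart. Among tested genes at or above 1000 normalised counts 39.7% were called higher and 28.9% lower. With quantile normalisation 7 rose and 20 fell, where 5294 and 4588 of all 19393 tested genes did. The median log2 change there was -0.22, against 0.061 for all. Equal totals gave 24 falls, against 8364 of all tested genes. The mitochondrial scale gave 39, against 14656, and equal upper quartiles 11, against 4989. Falls were thus more frequent among the 41 with quantile normalisation, and the cause was not tested. The role groups differed in composition. Of 13 signalling, feedback and receptor genes 7 fell and 1 rose, of 11 luminal products 2 fell and 3 rose, of 8 metabolic enzymes 3 rose, of 3 transporters and channels 2 rose, and of 6 others 3 fell and 2 rose. These groups were not compared by a test.

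The deepest fall was that of C1orf116, known as the specifically androgen-regulated gene, which had 3007 and 3926 normalised counts in the combination, 3407 and 3294 with AT7519, 21491 and 21805 with OSMI-2, and 17569 and 19977 in control. Libraries with AT7519, alone or combined, lay far below the rest. The log2 change with AT7519 was -2.48 (SE 0.11, adjusted p = 6.26e-09), 5.59-fold lower. RHOU, a small GTPase that acts on the cytoskeleton, had 766 and 899 normalised counts in the combination, 837 and 905 with AT7519, 4451 and 4466 with OSMI-2, and 3624 and 4649 in control, and again the 4 libraries with AT7519 stood apart from the 4 without it. Its log2 change with AT7519 was -2.24 (SE 0.13, adjusted p = 2.55e-08), 4.71-fold lower. TSC22D3, the glucocorticoid-induced leucine zipper GILZ, had 1681 and 1966 normalised counts in the combination, 1528 and 1458 with AT7519, 7685 and 7429 with OSMI-2, and 5927 and 6532 in control. Its log2 change was -2.06 (SE 0.10, adjusted p = 8.30e-09), 4.17-fold lower, with the same separation.

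PTGER4, the prostaglandin receptor EP4, was of low level, with 13.3 and 5.47 normalised counts in the combination, 55.8 and 21.4 with AT7519, 207 and 147 with OSMI-2, and 136 and 126 in control. The levels with AT7519 rest on 44 and 21 reads, against 232 and 138 reads in control. Its log2 change with AT7519 was -1.89 (SE 0.46, adjusted p = 0.00329), 3.71-fold lower. APPBP2, a binding partner of the amyloid precursor protein, had 4201 and 4847 normalised counts in the combination, 4462 and 4178 with AT7519, 8616 and 8596 with OSMI-2, and 8634 and 8644 in control, and fell 2-fold with AT7519 (95% interval of the log2 change -1.19 to -0.81, adjusted p = 6.36e-07). PMEPA1 had 2674 and 3325 normalised counts in the combination, 2091 and 2331 with AT7519, 5367 and 5755 with OSMI-2, and 3951 and 4386 in control. AT7519 libraries were the lowest, combination libraries came next, and neither overlapped control or OSMI-2. The log2 change of PMEPA1 with AT7519 was -0.91 (SE 0.11, adjusted p = 1.20e-05).

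Smaller falls with AT7519 were those of MPHOSPH9, a centrosomal protein, at -0.61, STEAP2 at -0.52, the bone morphogenetic protein receptor BMPR1B at -0.50, LRIG1, a feedback inhibitor of EGF receptor family members, at -0.48, the kinase CAMKK2, which activates AMPK, at -0.30, and the zinc finger repressor ZBTB10 at -0.30, all log2. The 12 falls kept their direction on all 4 other scales, and 10 of the 12 were called on all of them. The exceptions were BMPR1B, not called with quantile normalisation, and CAMKK2, not called with equal upper quartiles. CAMKK2 had 8537 and 10709 normalised counts in the combination, 7915 and 7155 with AT7519, 8873 and 10470.2 with OSMI-2, and 9772 and 8828 in control, and its fall was also lost without control replicate 1 or AT7519 replicate 2 (range over the 8 omissions -0.38 to -0.23). BMPR1B was lost without the same pair (-0.63 to -0.37), LRIG1 without control replicate 1 (-0.68 to -0.28), and ZBTB10 without control replicate 2 or either AT7519 library (-0.47 to -0.12).

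**Figure D2:**
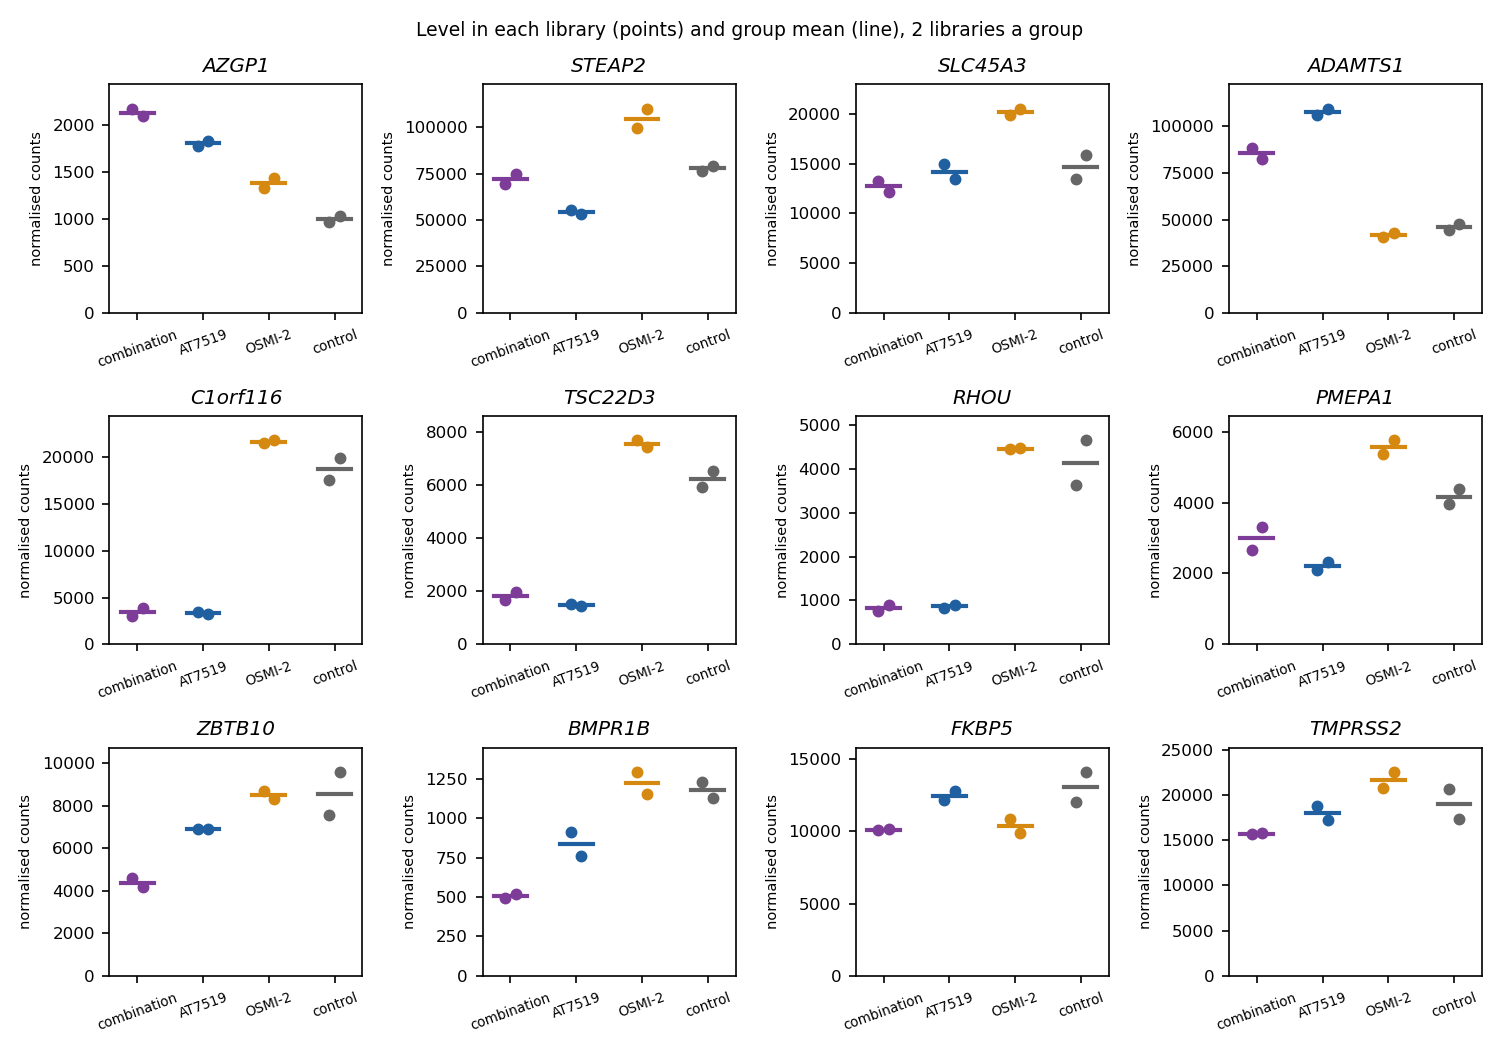
Normalised counts of 12 of the genes in each library (points) with the group mean (line), 2 libraries a group, on linear axes from 0. For C1orf116, TSC22D3 and RHOU the combination and AT7519 points lie together far below the OSMI-2 and control points, while AZGP1 is highest in the combination and lowest in control and BMPR1B and ZBTB10 are lowest in the combination.

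Rises with AT7519 depended on the scale, with ADAMTS1 as the exception. ADAMTS1, a secreted metalloproteinase, had 88663 and 82598 normalised counts in the combination, 106378 and 109409 with AT7519, 40425 and 42861 with OSMI-2, and 44327 and 47719 in control, and both groups with AT7519 stood above both without it. The log2 change with AT7519 was 1.23 (SE 0.072, adjusted p = 3.13e-08), 2.35-fold higher, and it was called higher on all 4 other scales. AZGP1 rose by a log2 change of 0.86 (SE 0.11, adjusted p = 1.26e-05), 1.81-fold, on the deposited scale, and this direction flips on the mitochondrial scale. TRPM8, the cold-sensing calcium channel, had 1096 and 1253 normalised counts in the combination, 910.5 and 1365 with AT7519, 983 and 694 with OSMI-2, and 673 and 876 in control, and its log2 change with AT7519 was 0.54 (adjusted p = 0.0367) on the deposited scale.

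Metabolic enzymes gave 3 of the 11 rises. The fatty acid elongase ELOVL5 had 112469.6 and 131620.1 normalised counts in the combination, 111821 and 119330.1 with AT7519, 83379 and 94047 with OSMI-2, and 75147 and 86537 in control, a log2 change with AT7519 of 0.52 (adjusted p = 3.03e-04). The sorbitol dehydrogenase SORD had 84406 and 92513 normalised counts in the combination, 89724 and 89870.0 with AT7519, 57622 and 58201 with OSMI-2, and 58786 and 67871 in control, a log2 change of 0.51 (adjusted p = 8.72e-05). For the glycine methyltransferase GNMT, with 1108 and 1198 normalised counts in the combination, 1233 and 1195 with AT7519, 936 and 990.2 with OSMI-2, and 912 and 851 in control, the log2 change was 0.46 (adjusted p = 0.00405). For all 3 the libraries with AT7519 lay above control on the deposited scale, and all 3 reversed on the mitochondrial scale, as did ELOVL5 and SORD with quantile normalisation.

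FOLH1, the prostate-specific membrane antigen, had 151867 and 161153 normalised counts in the combination, 172728 and 154471 with AT7519, 112431 and 118944 with OSMI-2, and 122921 and 117445 in control, a log2 change with AT7519 of 0.44 (SE 0.074, adjusted p = 1.75e-04). The remaining rises were the potassium channel KCNMA1 at 0.46, TPD52 at 0.36, the efflux pump ABCC4 at 0.27 and NCAPD3 at 0.20, all log2. Of the 11 rises, 1 kept its direction on all 4 other scales and 9 were called lower on at least 1 of them. The share of mitochondrial mRNAs moved with AT7519, as given above, and its part in these rises was not tested. The rise of TRPM8 was lost without control replicate 1 or AT7519 replicate 2 (0.24 to 0.83), and that of NCAPD3 without either control library or AT7519 replicate 2 (0.16 to 0.25). With these and the 4 falls named above, 17 of the 23 calls held when each of the 8 libraries was left out in turn.

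Several of the best-known androgen receptor targets were not called with AT7519 on the deposited scale. TMPRSS2, the serine protease whose promoter is fused to ERG in many prostate cancers, had 15682 and 15795 normalised counts in the combination, 18783 and 17239.6 with AT7519, 20724 and 22544 with OSMI-2, and 20661 and 17344 in control. Its log2 change with AT7519 was -0.073, with a 95% interval of -0.26 to 0.12, and the AT7519 and control libraries overlapped. For FKBP5 the log2 change was -0.064 (-0.25 to 0.12), for SLC45A3 -0.047 (-0.24 to 0.15), and for NDRG1, a gene of differentiation and stress responses, 0.19 (-0.064 to 0.45). TMEFF2, a membrane protein with follistatin-like modules, had 31067 and 33169 normalised counts in the combination, 34951 and 34267 with AT7519, 34471 and 39058 with OSMI-2, and 39658 and 38042 in control, a log2 change of -0.17 (-0.33 to -0.0024). A fall of the size seen for C1orf116, RHOU or TSC22D3 lies outside each of these intervals, on the deposited scale. TMPRSS2, FKBP5, SLC45A3 and TMEFF2 were each called lower with AT7519 on 3 of the 4 other scales, all but equal upper quartiles, and NDRG1 on 1, the mitochondrial one.

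The combination was next set against control, with the same control libraries as the single agents. Of the 41 genes, 18 rose (43.9%, against 26.3% of all tested genes and 35.7% of those at or above 1000 normalised counts) and 13 fell (31.7%, against 27.6% and 34.2%). The median log2 change was 0.0080, against 0.022 for all tested genes. With quantile normalisation 12 of the 41 rose, against 5707 of all 19393 tested genes, a like share. With equal upper quartiles 19 of the 41 rose, against 6476 of all. By role, 7 of 8 metabolic enzymes rose, 7 of 13 signalling genes fell and 3 rose, and 4 of 11 luminal products rose and 3 fell. The 18 rises are tied to the deposited scale: 1 of them, AZGP1, kept its direction on all 4 other scales, 0 were called higher on all 4, and 15 were called lower on at least 1. The 13 falls kept their direction on all 4, and 11 were called on all, the exceptions being TMEFF2 and TMPRSS2 with equal upper quartiles.

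PTGER4 had the lowest values relative to control, 13 and 3 reads in the combination against 232 and 138 reads in control. Combination replicate 2 stands at the floor of 3 reads, 5.47 normalised counts in that library, so no fold is given, and the call was made at an adjusted p of 9.81e-06 in limma. C1orf116 stood at a log2 change of -2.45 (SE 0.11, adjusted p = 3.15e-09), RHOU at -2.31 (SE 0.13, adjusted p = 1.12e-08) and TSC22D3 at -1.77 (SE 0.10, adjusted p = 1.31e-08), which is 5.45-fold, 4.94-fold and 3.42-fold lower. Against AT7519 alone their log2 changes in the combination were 0.037 for C1orf116, -0.069 for RHOU and 0.28 for TSC22D3, none of them called on the deposited scale. TSC22D3 was called higher there on 3 of the 4 other scales, all but the mitochondrial one, and C1orf116 and RHOU on none. BMPR1B had 494 and 522 normalised counts in the combination, 910.5 and 759 with AT7519, 1293 and 1153 with OSMI-2, and 1229 and 1128 in control, a log2 change against control of -1.21 (SE 0.13, adjusted p = 3.62e-06), 2.32-fold lower. ZBTB10 had 4594 and 4187 normalised counts in the combination, 6931 and 6932 with AT7519, 8682 and 8339 with OSMI-2, and 7546 and 9595 in control, a log2 change against control of -0.96 (SE 0.10, adjusted p = 3.07e-06), 1.94-fold lower. Combination libraries were the lowest of the 8 for both genes.

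The other falls in the combination were APPBP2 at -0.94, LRIG1 at -0.54, PMEPA1 at -0.48, MPHOSPH9 at -0.47, FKBP5 at -0.37, TMEFF2 at -0.27 and TMPRSS2 at -0.27, all log2. FKBP5, TMEFF2 and TMPRSS2 were called against control in the combination and with neither agent alone, but the interaction was called for none of them, and of the 3 FKBP5 was also called in the combination against AT7519. The call of FKBP5 was lost without control replicate 2 (-0.48 to -0.25), that of TMEFF2 without control replicate 1 or combination replicate 1 (-0.32 to -0.23), and that of TMPRSS2 without control replicate 1 or either combination library (-0.39 to -0.14).

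Among the rises, AZGP1 reached a log2 change of 1.10 (SE 0.11, adjusted p = 1.05e-06), 2.14-fold. ADAMTS1 rose by a log2 change of 0.90 (SE 0.072, adjusted p = 1.91e-07), 1.86-fold. HPGD, the dehydrogenase that inactivates prostaglandins, had 1134 and 1096 normalised counts in the combination, 715 and 1286 with AT7519, 872 and 848 with OSMI-2, and 489.9 and 957 in control. The combination libraries lay above control and inside the range with AT7519, and the log2 change against control of 0.70 (adjusted p = 0.0395) was lost in 5 of 8 omissions (0.22 to 1.18). NDRG1 had 4224 and 5673 normalised counts in the combination, 3502 and 3825 with AT7519, 3839.7 and 3701 with OSMI-2, and 3073 and 3329.6 in control, highest in the combination, a log2 change of 0.61 (SE 0.12, adjusted p = 6.01e-04). TRPM8 stood at a log2 change of 0.61 and ELOVL5 at 0.59. All of these but AZGP1 reverse on the mitochondrial scale, and none is called higher there.

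The 12 other rises ran from 0.24 for HOMER2, a synaptic scaffold protein, to 0.55 for KCNMA1 on the log2 scale, with HERC3, ABCC4, SORD, ACPP, ELOVL7, GNMT, FOLH1, TPD52, ABHD2 and ALDH1A3 in between. Without combination replicate 2, the least deeply sequenced library, 9 genes rather than 18 were called higher. Over all 8 omissions 19 of the 31 calls held. Those lost without combination replicate 2 were ABHD2, ACPP, ALDH1A3, ELOVL7, GNMT, HERC3, HOMER2, HPGD and TRPM8 among the rises and TMPRSS2 among the falls.

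**Figure D3:**
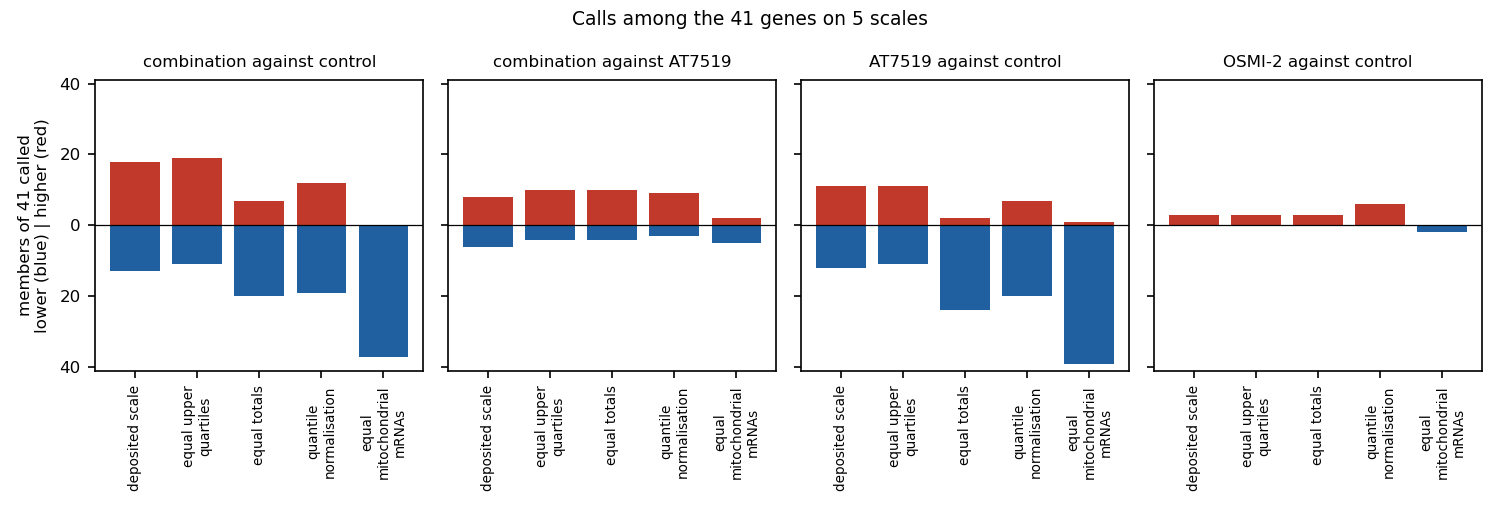
Number of the 41 genes called higher and lower (limma, adjusted p below 0.05) on the deposited scale and on 4 other scales in each comparison of groups, as bars above and below 0. Falls with AT7519 number 12 as deposited and 39 on the mitochondrial scale, while rises number 11 and 1. Over all 19393 tested genes, falls number 5278 and 14656 and rises 5045 and 383.

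The combination was set against AT7519 alone to ask what OSMI-2 adds to inhibition of cyclin-dependent kinases. Of the 41 genes, 8 rose (19.5%, against 7.21% of all tested genes and 6.97% of those at or above 1000 normalised counts) and 6 fell (14.6%, against 12.5% and 22.3%). The median log2 change was 0.059, against -0.017 for all tested genes. All 14 kept their direction on the 4 other scales. Calls on all 4 were kept by BMPR1B, PTGER4 and ZBTB10 among the falls and by ABHD2 and STEAP2 among the rises.

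BMPR1B fell by 0.71 on the log2 scale (SE 0.13, adjusted p = 0.00255, 1.64-fold), averaging 508 ± 19.4 in the combination and 835 ± 107 with AT7519 (SD, n = 2 each, limma test across all genes). ZBTB10 fell by 0.66 (SE 0.10, adjusted p = 7.72e-04, 1.58-fold), averaging 4391 ± 288 in the combination and 6931 ± 0.534 with AT7519. PTGER4 was called at 13 and 3 reads in the combination against 44 and 21 reads with AT7519, a call lost without AT7519 replicate 1 or combination replicate 2. The falls of BMPR1B and ZBTB10 held in every omission of a library.

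Smaller falls were those of ADAMTS1 at -0.33 (SE 0.072, adjusted p = 0.00546), FKBP5 at -0.30 (SE 0.088, adjusted p = 0.0268) and ACSL3, a long-chain fatty acyl-CoA synthetase, at -0.25 (SE 0.079, adjusted p = 0.0381). ACSL3 had 26289 and 27935 normalised counts in the combination, 33547 and 31040.3 with AT7519, 28025 and 31474 with OSMI-2, and 29059.8 and 30694 in control. Its combination libraries lay just below those with AT7519, and the call was found on none of the 4 other scales.

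PMEPA1 stood at a log2 change of 0.43 (SE 0.11, adjusted p = 0.0157), NDRG1 at 0.42 (SE 0.12, adjusted p = 0.0257) and STEAP2 at 0.41 (SE 0.073, adjusted p = 0.00195) in the combination against AT7519. For PMEPA1 and STEAP2 the combination thus lay between AT7519 alone and OSMI-2 alone. ABHD2, a serine hydrolase, had 101923 and 120389.9 normalised counts in the combination, 92696 and 78693 with AT7519, 103222 and 110528 with OSMI-2, and 95518 and 85254 in control, a log2 change of 0.38 (adjusted p = 0.0148). ALDH1A3, which makes retinoic acid, had 5026 and 5951 normalised counts in the combination, 4446 and 4112 with AT7519, 4828 and 5248 with OSMI-2, and 4643 and 4587 in control, a log2 change of 0.35 (adjusted p = 0.0207). For both, the combination libraries were above both AT7519 libraries. CAMKK2 stood at a log2 change of 0.35 (adjusted p = 0.0449), the vesicle GTPase RAB3B at 0.28 (adjusted p = 0.0396) and ABCC4 at 0.23 (adjusted p = 0.0368).

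Most of these calls were sensitive to single libraries, and 3 of the 14, BMPR1B, STEAP2 and ZBTB10, held in all 8 omissions. Every rise but that of STEAP2 lost its call without combination replicate 2. Without it, or without AT7519 replicate 2, rises were no more frequent among the target genes than among all tested genes. The excess of rises given above thus held in some omissions and not in others. All 8 rises stayed above 0 in every omission, the smallest log2 change being 0.17, for ABCC4. Among the falls, only BMPR1B and ZBTB10 kept their calls without combination replicate 2. Without AT7519 replicate 1, ADAMTS1 kept its call as well.

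The effect of OSMI-2 could be compared with and without AT7519, since these 2 contrasts share no library. Across the 41 genes, which are not independent replicates, Spearman's rho was 0.468, against 0.451 across all tested genes, and Pearson's r was 0.0984, against 0.351. Leaving out PTGER4 and STEAP4, the members of lowest level, gave a Pearson's r of 0.544 and a Spearman's rho of 0.627. Genes of low level were not left out of all tested genes, so these values have no like background. The same sign was seen for 28 of 41 (68.3%), against 70.4% of all tested genes. By sign and rank over the 41 genes, the likeness of the 2 effects was thus about that of genes at large, while by Pearson's r it was lower.

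**Figure D4:**
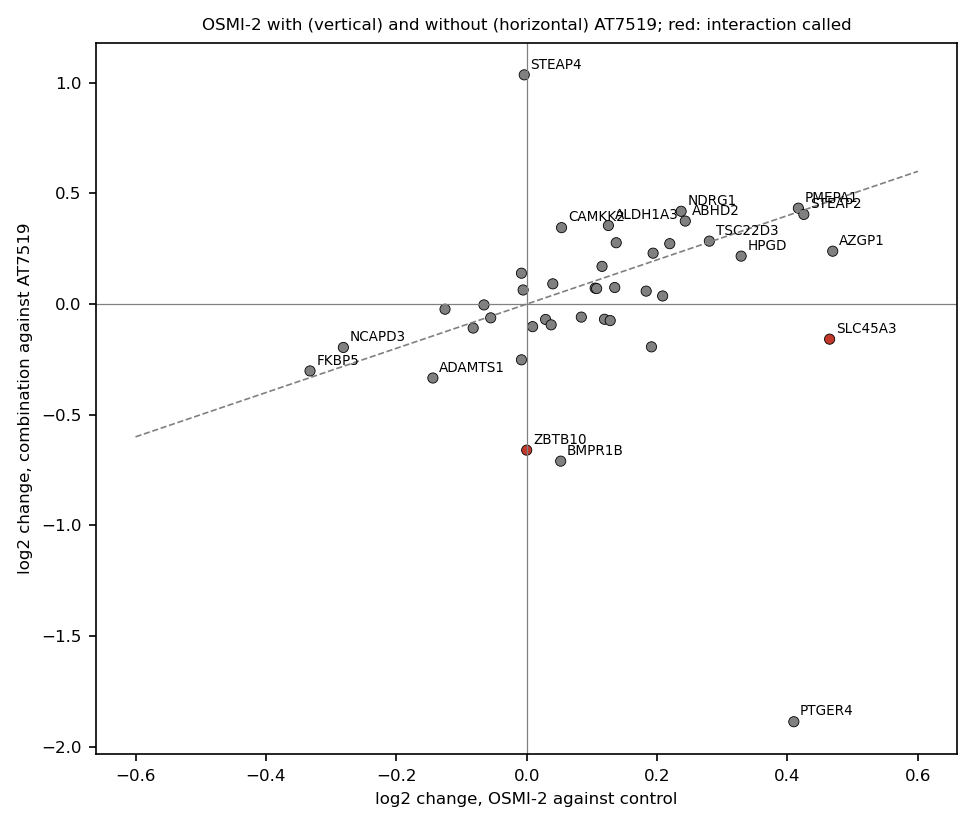
Log2 change in the combination against AT7519 plotted against the log2 change with OSMI-2 against control for each of the 41 genes, and the dashed line marks equal changes. Genes called in the interaction are red, STEAP2 lies above 0 on both axes, and SLC45A3 (0.46 with OSMI-2 against control) and ZBTB10 (-0.66 in the combination against AT7519) lie below the line.

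In the test of this difference itself, the interaction of OSMI-2 and AT7519, 0 genes were called higher in limma, in edgeR or in DESeq2, 0 at an unadjusted p below 0.05 (0.0619% of all tested genes were called), and 2 were called lower in limma (4.88%, against 0.975% of all tested genes and 1.72% of those at or above 1000 normalised counts). For SLC45A3 the log2 effect of OSMI-2 was -0.16 with AT7519 and 0.46 without it, an interaction of -0.62 (SE 0.13, adjusted p = 0.0343). For ZBTB10 the effect was -0.66 with AT7519 and in effect 0 (-1.7e-05) without it, an interaction of -0.66 (SE 0.15, adjusted p = 0.0485). Both calls were lost in 6 of the 8 omissions of a library and held only without AT7519 replicate 2 or combination replicate 1, with log2 values of -0.74 to -0.50 for SLC45A3 and -0.83 to -0.49 for ZBTB10. SLC45A3 kept the call on 2 of the 4 other scales and ZBTB10 on 0.

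Over the 5 contrasts, 37 of the 41 genes were called at least once on the deposited scale. The same share over all tested genes was not computed. With AT7519 alone 26% of all tested genes were called higher and 27.2% lower, so the 37 is not read as a trait of these genes. The 4 called in none of the 5 contrasts on the deposited scale were the lipid phosphatase INPP4B, the magnesium transporter SLC41A1, STEAP1 and STEAP4. STEAP4 was near the detection limit, with 11 and 6 reads in the combination, 6 and 3 with AT7519, 22 and 15 with OSMI-2 and 20 and 25 in control. INPP4B had 1771 and 1650.4 normalised counts in the combination, 1738 and 1915 with AT7519, 1967 and 2150.2 with OSMI-2, and 1679 and 2392 in control. STEAP1 had 30843 and 30565 normalised counts in the combination, 34076 and 31869 with AT7519, 31185 and 31725 with OSMI-2, and 30862 and 31658 in control. The log2 change with AT7519 was -0.14 (-0.44 to 0.17) for INPP4B and 0.076 (-0.071 to 0.22) for STEAP1. Of the 4 other scales, AT7519 was called lower than control on 3 for STEAP1 and on 2 each for INPP4B, SLC41A1 and STEAP4, and the combination was on 3 for STEAP1 and on 2 each for INPP4B and SLC41A1. The most frequent pattern, shared by 7 genes, was a rise with AT7519 and in the combination, on the deposited scale, with no other call: ELOVL5, FOLH1, GNMT, KCNMA1, SORD, TPD52 and TRPM8. The next, shared by 6, was a fall in both: APPBP2, C1orf116, LRIG1, MPHOSPH9, RHOU and TSC22D3. Both comparisons use the same control libraries, and the share of all tested genes with either pattern was not computed. These counts are therefore not read as particular to the set.

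Partner factors, coregulators and chaperones of the receptor were read from a list of 18 genes. With OSMI-2, 4 of the 18 fell (2.38% of all tested genes did), all of them HSP90 isoforms or cochaperones, led by HSP90AA1 at a log2 change of -0.61 (SE 0.099, adjusted p = 0.0102) and FKBP4 at -0.44 (SE 0.074, adjusted p = 0.0103). With AT7519, 7 rose (26% of all tested genes did), led by the chaperone genes CDC37 at 0.73 and HSP90AA1 at 0.68, and 8 fell (27.2% of all), led by the coactivators NCOA3 at -0.80 (SE 0.11, adjusted p = 2.16e-05) and NCOA2 at -0.78 (SE 0.078, adjusted p = 1.74e-06). The 4 falls with OSMI-2 and the 8 with AT7519 were called on all 4 other scales, whereas all 7 rises with AT7519 took the other sign on the mitochondrial scale.

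Against control, the combination had 3 rises (26.3% of all tested genes rose), the largest those of CDC37 at 0.47 and HSP90AB1 at 0.28, which also reversed on the mitochondrial scale, and 10 falls (27.6% of all), led by NCOA2 at -1.14 and the coactivator CREBBP at -0.97. Against AT7519, 9 fell (12.5% of all tested genes did), led by the factor GATA2 at a log2 change of -0.75 (SE 0.10, adjusted p = 3.02e-04) and HSP90AA1 at -0.60 (SE 0.099, adjusted p = 0.0011). All 9 kept their direction on the 4 other scales, and 5 of them, GATA2, HSP90AA1, FKBP4, PTGES3 and NCOA2, were called on all 4. HSP90AB1 was called on 3, EP300 and FOXA1 on 1 each and CDC37 on none. GATA2 had 9268 and 7260.0 normalised counts in the combination, 14466 and 13176 with AT7519, 14161 and 14242 with OSMI-2, and 14072 and 14759 in control, and its combination libraries were the lowest of the 8. GATA2 and NCOA2 were the 2 called lower in the interaction, at -0.73 (adjusted p = 0.0277) and -0.52 (adjusted p = 0.0377) (0.975% of all tested genes were). GATA2 kept that call on 3 of the 4 other scales and NCOA2 on 1.

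The kallikreins, the classic androgen-induced serine proteases, were taken as a list of 4. None was called with OSMI-2 in limma or edgeR, although 3 were above control at an unadjusted p below 0.05 and DESeq2 called 1. KLK4 rose with AT7519 (0.31), where 26% of all tested genes rose. All 4 rose in the combination against control on the deposited scale but took the other sign on the mitochondrial scale, as KLK4 did with AT7519 (26.3% of all tested genes rose in the combination). Against AT7519, 2 rose on all 5 scales, where 7.21% of all tested genes rose on the deposited one, KLK2 at 0.68 (SE 0.13, adjusted p = 0.00311) and KLK3, which encodes prostate-specific antigen, at 0.39 (SE 0.11, adjusted p = 0.0273). KLK2 had 29165 and 35897 normalised counts in the combination, 18104 and 22625 with AT7519, 21150.0 and 24947 with OSMI-2, and 16498 and 20839 in control. Its combination libraries were the highest, apart from every other group.

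Gene length was set beside the changes. The genes span a median of 66.6 kb, against 33.2 kb for tested protein-coding genes in GENCODE release 29. Spearman's rho between span and the log2 change with AT7519 was 0.014 across the 41 genes, against -0.194 across tested protein-coding genes, as a description with no test. With the length of the longest transcript instead, it was -0.276 across the 41 genes and -0.293 across 12753 tested protein-coding genes. Short and long genes were found in both directions on the deposited scale. C1orf116, RHOU and PTGER4, which fell with AT7519, span 14.2, 11.6 and 14.2 kb, and ADAMTS1 and AZGP1, which rose, span 9.66 and 9.44 kb. Among longer genes, TSC22D3, APPBP2 and BMPR1B, which fell, span 64.1, 83.1 and 400 kb, and ABCC4 and KCNMA1, which rose, span 282 and 769 kb. Some counts carry an uncertainty of assignment, because the strand setting of the counting is not given in the sources used here: GNMT overlaps PEX6 on the other strand, HERC3 NAP1L5, MPHOSPH9 C12orf65, PTGER4 TTC33, TSC22D3 NCBP2L, LRIG1 SLC25A26, and NCAPD3 JAM3 and VPS26B. FKBP5, HERC3, MPHOSPH9, TPD52, KCNMA1, ALDH1A3, INPP4B, ELOVL5 and ABHD2 overlap a gene on their own strand in GENCODE release 29. There, reads could be shared under any strand setting. FOLH1, SORD and STEAP1 have near-identical relatives in the genome with which reads could be shared.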

How the data were processed

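RNA from LNCaP cells was sequenced from 8 libraries, 2 in each of 4 groups, made with a strand-specific TruSeq kit per the labels. The table deposited by the authors holds a signal, namely read counts of each gene scaled by 1 factor per library. STAR, HTSeq, DESeq2, hg19 and GRCh37 are named in the submitters' processing notes, with roles, versions, annotation and strand setting not given in the sources used here. Dividing each deposited column by its smallest step gave whole reads for 100% of values within a tolerance of 0.01. Of the columns, 0 belonged to other samples, and 28 lines without a gene name, holding 0 reads, were left out.

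The test covered 19393 genes whose mean was 10 normalised counts or more, as log2(value + 1) in 1 limma model (3.58.1, R 4.3.3) over the 4 groups with a mean-variance trend, 4 residual and 10.1 prior degrees of freedom. P-values were two-sided and Benjamini-Hochberg adjusted over all tested genes of a comparison, with calls below 0.05. The interaction is the combination minus AT7519, minus OSMI-2 minus control. Alternatives were edgeR (4.0.16) and DESeq2 (1.42.0) on the recovered counts, 4 scales, pseudocounts of 0.5 and 5, other filters, a replicate block and the omission of each library. The 41 genes, their roles and all lists were chosen with earlier results of these data known. Values in every library are given for up to 6 rises and 6 falls of a comparison whose mean is 50 normalised counts or more and for 8 genes in every case, and other lists by counts with at most 2 called genes a direction. Some genes of these lists are not reported here. Gene spans and overlaps come from GENCODE release 29 by symbol, and sequences from RefSeq on GRCh38.p14, whose coordinates are not those of the authors' build.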

Additional observations from a re-analysis of the deposited data

Results flagged for a closer look

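For 2 of the 41 genes the effect of OSMI-2 differed between cells with and without AT7519 in the test of the difference itself. ZBTB10 had an OSMI-2 effect of -0.66 on the log2 scale with AT7519 and in effect 0 (-1.7e-05) without it, an interaction of -0.66 (limma, Benjamini-Hochberg adjusted p = 0.0485). Both combination libraries lay below both AT7519 libraries, while the OSMI-2 libraries lay inside the range of control. SLC45A3 had an effect of -0.16 with AT7519 and 0.46 without it, an interaction of -0.623 (limma, adjusted p = 0.0343). Both adjusted p-values lie close to the threshold, and both calls were lost when any of 6 of the 8 libraries was left out.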

How the results depend on the processing

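Of the single results of the 41 genes over all settings and the 5 contrasts, 3721 stayed on their side of the threshold, 217 lost a call, 100 gained one and 57 reversed with a call on at least one side. Of the 3721, 3515 kept their sign and 206, called under neither setting, changed it, among them 60 with OSMI-2 and 73 in the interaction. The 57 were rises or small positive values against control that turned negative under another scale. Equal totals and equal mitochondrial mRNAs move the median gene down, and for quantile normalisation the cause was not tested. For AT7519 against control, the mitochondrial scale gave -0.64 for ABCC4, -0.74 for ACPP, -0.80 for ACSL3, -0.059 for AZGP1, -0.40 for ELOVL5, -0.53 for ELOVL7, -0.47 for FOLH1, -0.45 for GNMT, -0.58 for HERC3, -0.75 for HOMER2, -0.43 for HPGD, -0.46 for KCNMA1, -0.71 for NCAPD3, -0.72 for NDRG1, -0.90 for SLC41A1, -0.41 for SORD, -0.84 for STEAP1, -0.56 for TPD52 and -0.38 for TRPM8. Equal totals gave -0.071 for ABCC4, -0.23 for ACSL3, -0.14 for NCAPD3, -0.33 for SLC41A1 and -0.27 for STEAP1, and quantile normalisation gave -0.12 for ABCC4, -0.27 for ACSL3, -0.068 for ELOVL5, -0.21 for FOLH1, -0.080 for NCAPD3, -0.036 for SORD, -0.32 for STEAP1 and -0.026 for TPD52. For the combination against control, the mitochondrial scale gave -0.48 for ABCC4, -0.68 for ABHD2, -0.53 for ACPP, -0.082 for ADAMTS1, -0.73 for ALDH1A3, -0.94 for CAMKK2, -0.38 for ELOVL5, -0.54 for ELOVL7, -0.60 for FOLH1, -0.59 for GNMT, -0.48 for HERC3, -0.74 for HOMER2, -0.27 for HPGD, -0.43 for KCNMA1, -0.97 for NCAPD3, -0.36 for NDRG1, -0.89 for RAB3B, -0.49 for SORD, -0.62 for TPD52 and -0.37 for TRPM8. Equal totals gave -0.014 for ALDH1A3, -0.022 for HOMER2 and -0.25 for NCAPD3, and quantile normalisation gave -0.23 for ABHD2 and -0.20 for FOLH1.

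Counts of calls moved as follows, and except where the scale or the number of genes tested sets it, the cause was not tested. With OSMI-2 against control, the 3 rises became 0 with no filter, on the mitochondrial scale and without the trend, and 6 with quantile normalisation. The 0 falls became 2 with a mean of at least 50, on the mitochondrial scale and with DESeq2, and 1 with edgeR. Over all tested genes, rises numbered 125, then 29 of 33378 with no filter, 98 on the mitochondrial scale and 0 without the trend. With quantile normalisation there were 241. Falls over all numbered 461, then 590 of 15285 with a mean of at least 50 and 1173 on the mitochondrial scale. DESeq2 gave 1101 and edgeR 520. With AT7519 against control, the 11 rises and 12 falls became 2 and 24 with equal totals, 1 and 39 on the mitochondrial scale and 7 and 20 with quantile normalisation. Over all 19393 tested genes, 5045 and 5278 became 2036 and 8364 with equal totals. The mitochondrial scale gave 383 and 14656 and quantile normalisation 5294 and 4588. In the combination against control, the 18 rises and 13 falls became 7 and 20 with equal totals and 0 and 37 on the mitochondrial scale, and the rises became 10 without the trend. Quantile normalisation gave 12 and 19. Over all tested genes, 5097 and 5351 became 2652 and 7369 with equal totals and 425 and 14590 on the mitochondrial scale. Without the trend 4450 rose, and quantile normalisation gave 5707 and 4814. In the combination against AT7519, the 8 rises became 3 with no filter, 2 on the mitochondrial scale and 0 without the trend. The 6 falls became 3 with quantile normalisation and 1 without the trend. Over all tested genes, 1399 rises became 1011 of 33378 with no filter, 995 on the mitochondrial scale and 364 without the trend. The 2416 falls over all became 1455 with quantile normalisation and 501 without the trend. The count of 2 falls in the interaction was 1 with a pseudocount of 0.5, with equal totals, on the mitochondrial scale, with quantile normalisation and with edgeR, and 0 with no filter, with equal upper quartiles and without the trend. On the mitochondrial scale that 1 was PTGER4, which is not among the 2, and elsewhere it was SLC45A3. Over all tested genes 189 fell in the interaction, 180 with a pseudocount of 0.5, 178 with equal totals and 230 on the mitochondrial scale. Quantile normalisation gave 125, edgeR 168, no filter 32 of 33378, equal upper quartiles 107 and the fit without the trend 0. Leaving out each library in turn gave 0 to 4 rises and 0 to 2 falls with OSMI-2, 9 to 14 rises and 9 to 12 falls with AT7519, 9 to 18 rises and 11 to 13 falls in the combination against control, 1 to 10 rises and 2 to 6 falls in the combination against AT7519, and 0 to 0 rises and 0 to 4 falls in the interaction.

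The replicate block treats equal replicate numbers as pairs. Only 2 numbers exist, and the deviations of equally numbered libraries correlated at 0.0207 to 0.123 between pairs of groups. The labels do not say whether equally numbered libraries share a batch. With 2 libraries a group these correlations cannot decide it. With the block, calls higher and lower numbered 4 and 1 with OSMI-2, 13 and 12 with AT7519 and 18 and 13 in the combination against control. They numbered 8 and 6 in the combination against AT7519 and 0 and 4 in the interaction. Over all 19393 tested genes, in the same order, they numbered 213 and 652, 5198 and 5466, and 5246 and 5483. The last 2 contrasts gave 1656 and 2639, and 38 and 366. Where a library was left out, the remaining one of its group was assumed to vary like the other groups. Depth limits PTGER4 and STEAP4, at 3 reads in a library, and combination replicate 2 has the fewest reads.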

Other observations

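Genes that androgen represses were read from a list of 5, OPRK1, UGT2B15, UGT2B17, CAMK2N1 and MET. UGT2B15 and UGT2B17 glucuronidate androgens, and OPRK1 is the kappa opioid receptor. With OSMI-2, 1 of the 5 fell (2.38% of all tested genes did), UGT2B15, with 27654 and 28770.3 normalised counts in the combination, 47288 and 44171 with AT7519, 15794 and 18986 with OSMI-2, and 24625 and 29243 in control. Its change was -0.63 (SE 0.097, adjusted p = 0.00781) with OSMI-2 against control and -0.70 (SE 0.097, adjusted p = 3.85e-04) in the combination against AT7519, in limma with Benjamini-Hochberg adjustment, and both falls were called on all 4 other scales. With AT7519, 3 rose on the deposited scale (26% of all tested genes did), the largest changes being 0.77 for UGT2B15 and 0.74 for UGT2B17, and all 3 took the other sign on the mitochondrial scale. OPRK1 fell (27.2% of all tested genes did with AT7519), with 246 and 221 normalised counts in the combination, 415 and 239 with AT7519, 1105 and 748 with OSMI-2, and 1520.2 and 974 in control, a change of -1.95 (SE 0.26, adjusted p = 2.36e-05) with AT7519 and -2.38 (SE 0.26, adjusted p = 3.22e-06) in the combination against control. In the combination against control 2 of the 5 rose on the deposited scale and 1 fell (26.3% and 27.6% of all tested genes), and the interaction was called for 0 of them in limma, edgeR or DESeq2, with 0 at an unadjusted p below 0.05.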
